A study of Mus musculus with 3 samples.

Results

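The genes described here are 10 components of the Notch pathway, namely the receptors *Notch1*, *Notch2*, *Notch3* and *Notch4*, the ligands *Dll1*, *Dll4*, *Jag1* and *Jag2*, and the targets *Hey1* and *Hey2*. They were chosen by name, and all 10 were found among the 24346 gene symbols of the deposited table. Bulk RNA-seq was performed on adult lung endothelial cells (ECs) from wild type C57BL/6J mice, which the study's methods describe as males aged 6 to 8 weeks. Cells were freshly isolated from the tissue and sorted by FACS as CD31 positive, CD45 negative and Podoplanin negative ECs after labelling of the blood vessels with a VE-cadherin antibody. The 3 libraries, called S38, S44 and S52 here, belong to 1 condition with no treatment and no transgene, so no difference between conditions was tested. The labels do not say whether each library came from a separate mouse or from a pool, so the SD measures the spread between libraries, which may be technical.

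Notch signaling passes between touching cells. A ligand of the Delta-like (Dll) or Jagged (Jag) family on one cell binds a Notch receptor on its neighbour, the receptor is cut by ADAM proteases and then by gamma-secretase, and its intracellular domain moves to the nucleus, where it joins the DNA-binding protein RBPJ and Mastermind-like proteins to switch on targets such as the Hes and Hey repressors. In blood vessels the pathway is known for arterial identity and for restraining sprouting, with *Notch1*, *Notch4*, *Dll4* and *Jag1* expressed by ECs, whereas *Notch3* is best known as the receptor of pericytes and smooth muscle cells, together called mural cells.

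Values are FPKM, the fragments assigned to a gene scaled to its length and to the size of the library, so levels of different genes can be set side by side. The RNA was poly-A selected and sequenced as 51 bp paired reads without strand information. Depth is not given in the table and was estimated from the steps of the low values, which gave 38000000 fragments for S38, 38800000 for S44 and 33900000 for S52. Of 10 endothelial marker genes, all 10 were at 1 FPKM or above in every library, with summed levels of 6291 to 7058 FPKM. RNA of other cells was present as well and differed between libraries. Platelet RNA, summed over 4 genes, reached 1692 FPKM in S38 and 1345 FPKM in S44 but 37.96 FPKM in S52. Alveolar type 2 RNA, summed over 6 genes, reached 3797, 3184 and 767 FPKM in the order S38, S44, S52, so S52 stood apart in both lists. The 9 mural genes instead were lowest in S44, with a sum of 145 FPKM against 238 FPKM in S38 and 244 FPKM in S52.

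All 10 genes had a mean of at least 1 FPKM, the level called detected here, which 48.3% of all genes in the table reached. For 6 of the 10 the mean was at least 10 FPKM, compared with 25.7% of all genes, and 9 of the 10, all but *Hey2*, reached 1 FPKM in every library, compared with 43.9% of all genes. The median of the 10 means was 29.6 FPKM, against 11.2 FPKM over the 11770 detected genes. In bulk samples, fewer cells of a type and less RNA per cell cannot be told apart, which applies to each level below.

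**Figure D1:**
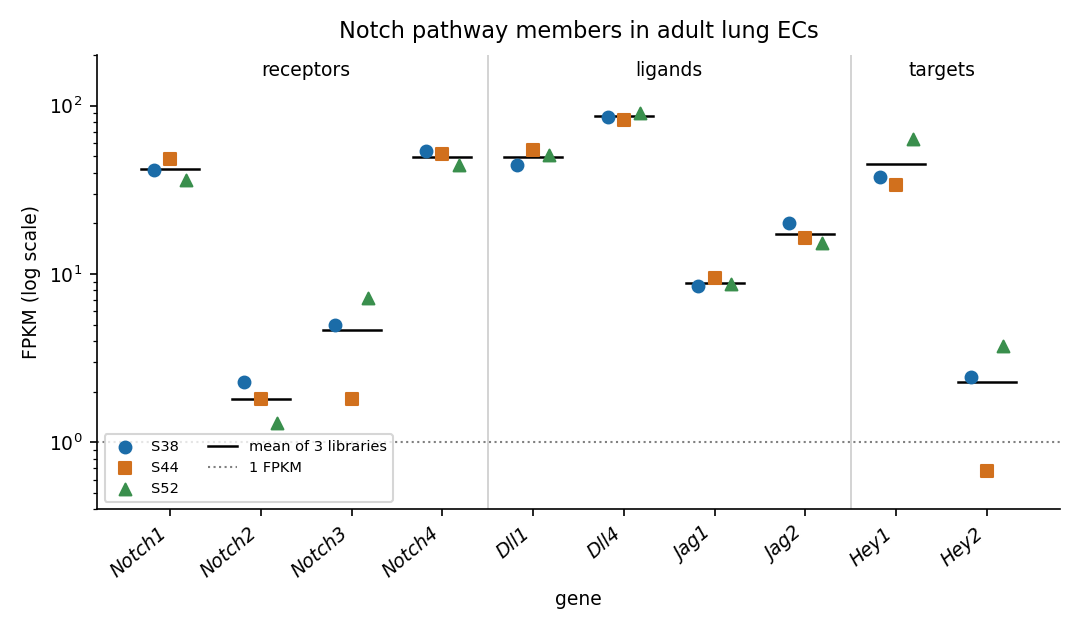
FPKM (log axis) of the 4 receptors, 4 ligands and 2 targets in the 3 adult lung EC libraries, with 1 symbol per library, a black line at the mean and a dotted line at 1 FPKM. *Dll4* sits above all others in every library, and the symbols of *Notch3* and *Hey2* are spread the most, with S44 lowest and S52 highest.

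Among the receptors, *Notch4* and *Notch1* were far above *Notch3* and *Notch2*. *Notch4*, the receptor most restricted to endothelium, had 53.7 FPKM (S38), 51.3 FPKM (S44) and 44.3 FPKM (S52), with a mean of 49.8 ± 4.85 FPKM (SD, n = 3 libraries). *Notch1*, the receptor whose loss is known to disturb vessel growth in the embryo, had 41.5, 48.4 and 36.2 FPKM in that library order, which holds for all triplets of values here, and a mean of 42.0 ± 6.14 FPKM (SD, n = 3). *Notch4* was the higher of this pair in each library, by 1.29, 1.06 and 1.23 times, but the ranges of both genes over the libraries overlapped. Of the summed receptor FPKM, 50.6% ± 1.54 came from *Notch4* and 42.6% ± 3.63 from *Notch1* (SD, n = 3 for each).

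*Notch3* had 4.99, 1.80 and 7.23 FPKM, a mean of 4.67 ± 2.73 FPKM (SD, n = 3), and thus differed 4.01-fold between the highest and the lowest library. Its share of the receptor sum ran from 1.75% in S44 to 8.12% in S52, with 4.87% in S38. *Notch2*, a receptor of many tissues, was the lowest of the 10 genes by its mean, with 2.28, 1.81 and 1.31 FPKM and a mean of 1.80 ± 0.486 FPKM (SD, n = 3). *Notch1* exceeded *Notch2* by 18.2 times in S38, 26.8 times in S44 and 27.6 times in S52. The levels of *Notch2* and *Notch3* nearly met in S44, whereas *Notch3* was the higher in S38 and S52.

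Among the ligands, the Delta-like genes were above the Jagged genes in every library. *Dll4*, the endothelial Delta-like ligand of arteries and sprouting tips, had 86.2, 82.6 and 90.9 FPKM. Its mean of 86.6 ± 4.15 FPKM (SD, n = 3) was above that of 95.9% of all genes. *Dll1*, a ligand also known from arterial endothelium, had 44.6, 54.2 and 50.6 FPKM and a mean of 49.8 ± 4.83 FPKM (SD, n = 3). *Dll4* exceeded *Dll1* by 1.93, 1.52 and 1.80 times, and the ranges of these ligands did not overlap.

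*Jag2*, the second Jagged ligand, had 20.04, 16.3 and 15.3 FPKM and a mean of 17.2 ± 2.48 FPKM (SD, n = 3). *Jag1*, the Jagged ligand with a known part in the smooth muscle coat of arteries, had 8.48, 9.42 and 8.67 FPKM and a mean of 8.85 ± 0.497 FPKM (SD, n = 3). The ranges of *Jag2* and *Jag1* did not overlap, and *Jag2* was the higher by 2.36, 1.73 and 1.77 times. Of the summed ligand FPKM, 53.3% ± 2.167 came from *Dll4*, 30.6% ± 2.66 from *Dll1*, 10.6% ± 1.74 from *Jag2* and 5.45% ± 0.299 from *Jag1* (SD, n = 3 for each). The ligand sum of 162 ± 3.09 FPKM exceeded the receptor sum of 98.3 ± 8.001 FPKM (SD, n = 3 for each), and no library of either set reached into the range of the other.

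**Figure D2:**
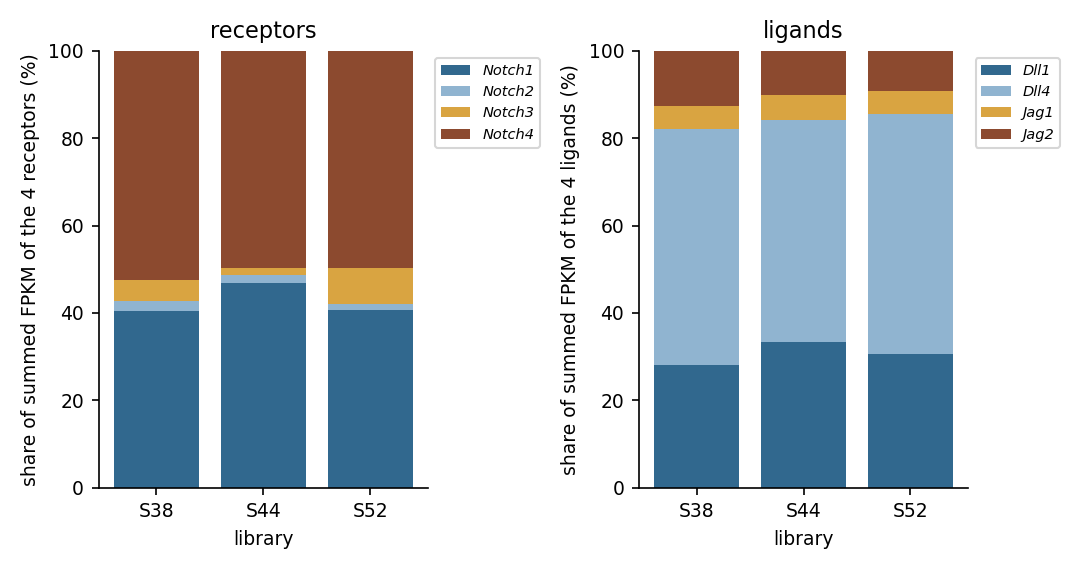
Share (%) of the summed FPKM of the 4 receptors (left) and of the 4 ligands (right) that each gene took in libraries S38, S44 and S52. *Notch4* and *Notch1* fill most of each receptor bar and *Dll4* and *Dll1* most of each ligand bar, and the *Notch3* segment runs from 1.75% in S44 to 8.12% in S52.

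*Hey1* and *Hey2* encode related basic helix-loop-helix repressors that are switched on by Notch. *Hey1* had 37.5, 33.6 and 63.0 FPKM and a mean of 44.7 ± 16.0 FPKM (SD, n = 3), so S52 stood above the other libraries. *Hey2* had 2.45, 0.679 and 3.74 FPKM and a mean of 2.29 ± 1.54 FPKM (SD, n = 3), and it differed 5.503-fold between the highest and the lowest library. *Hey1* made up 95.4% ± 2.26 of the summed FPKM of this pair (SD, n = 3). It exceeded *Hey2* by 15.3 times in S38, 49.5 times in S44 and 16.9 times in S52.

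Ordered by their means, the genes ran *Dll4*, *Dll1*, *Notch4*, *Hey1*, *Notch1*, *Jag2*, *Jag1*, *Notch3*, *Hey2* and *Notch2*. Of the 9 pairs of neighbours in this order, 4 had ranges that did not overlap, namely *Dll4* above *Dll1*, *Notch1* above *Jag2*, *Jag2* above *Jag1* and *Jag1* above *Notch3*. The last of these was narrow, since the lowest value of *Jag1* was 8.48 FPKM and the highest of *Notch3* was 7.23 FPKM. *Dll1*, *Notch4*, *Hey1* and *Notch1* could not be ordered beyond their spread, and neither could *Notch3*, *Hey2* and *Notch2*, although *Notch3* was above *Hey2*, and *Notch4* and *Dll1* both above *Notch1*, within each library. With 3 libraries, a two-sided exact sign-flip test of a pair of genes cannot give a p-value below 0.25, so no pair was tested.

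The genes differed in how much they varied between libraries. Between the highest and the lowest library, *Dll4* differed 1.10-fold and *Jag1* 1.11-fold. *Notch3* and *Hey2* were over 2-fold apart, that is 2 of 10, where the same held for 20.1% of all detected genes. Without S44, neither of them was over 2-fold apart (14.8% of all detected genes were), so this count rests on the low values of that library. With each library rescaled to the same sum, *Hey1* and *Notch2* were added and 4 of 10 were over 2-fold apart, beside 25.8% of all detected genes. The estimated fragments behind *Hey2* were 222 in S38, 63 in S44 and 304 in S52, and the 95% exact Poisson interval in S44, which covers counting error only, ran from 0.522 to 0.869 FPKM, below the 2.14 to 2.79 FPKM of S38 and the 3.33 to 4.18 FPKM of S52. For *Notch3* the intervals were 4.74 to 5.25 FPKM in S38, 1.66 to 1.96 FPKM in S44 and 6.91 to 7.56 FPKM in S52. The differences between libraries in these genes were thus larger than counting error at this depth.

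*Notch3*, *Hey1*, *Hey2* and *Dll4* shared 1 order of the libraries, highest in S52 and lowest in S44, which 17.8% of all detected genes followed. With each library rescaled to the same sum, *Dll4* was highest in S38 and the other 3 kept the order. The mural list had 8 of its 9 genes detected and none listed at 0. All 9 mural genes were lowest in S44, and 5 of them, *Pdgfrb*, *Cspg4*, *Rgs5*, *Cox4i2* and *Higd1b*, were also highest in S52. The share of all genes that were lowest in S44 was not counted. *Rgs5*, a pericyte gene, had 5.75, 3.31 and 9.11 FPKM. The smooth muscle gene *Myh11* had 11.5, 4.72 and 10.5 FPKM. Some genes of other lists followed this order too. It held for 1 of the 10 endothelial genes, the transcription factor gene *Erg* at 59.2, 43.1 and 84.8 FPKM. It held for 2 of the 4 alveolar type 1 genes, among them *Ager* at 43.3, 33.4 and 66.0 FPKM. The part of mural RNA in the levels of *Notch3*, *Hey1* and *Hey2* was not tested. *Notch4*, *Notch2* and *Jag2* ran in another order, highest in S38 and lowest in S52, which 26.6% of all detected genes followed, although *Jag2* was lowest in S44 with each library rescaled to the same sum. That order was also seen in the endothelial gene *Kdr* (380, 360 and 237 FPKM). It was also seen in the aerocyte capillary gene *Fibin* (179, 153 and 65.6 FPKM). No other gene of the endothelial or aerocyte capillary list followed that order. The sum of the 4 aerocyte genes was still lowest in S52 (1257, 1349 and 771 FPKM). That of the 4 general capillary genes was highest in S52 (1599, 1792 and 2044 FPKM). The order of *Notch4*, *Notch2* and *Jag2* described above was also looked for in other lists. It was seen as well in the sums of the platelet and alveolar type 2 lists given above and of 4 airway genes (2767, 2303 and 401 FPKM). The sum of 6 leukocyte genes followed it too (1064, 793 and 169 FPKM, with *Cd3e* and *Nkg7* listed at 0 in S52). So did the sum of 6 fibroblast genes (88.8, 71.04 and 57.8 FPKM), although of these only *Dcn* and *Col1a1* followed it singly. Single genes of other lists also did, among them the arterial endothelial genes *Bmx* and *Fbln5*, while the arterial sum was highest in S52. The part of the cells of these lists in the levels of *Notch4*, *Notch2* and *Jag2* was not tested.

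**Figure D3:**
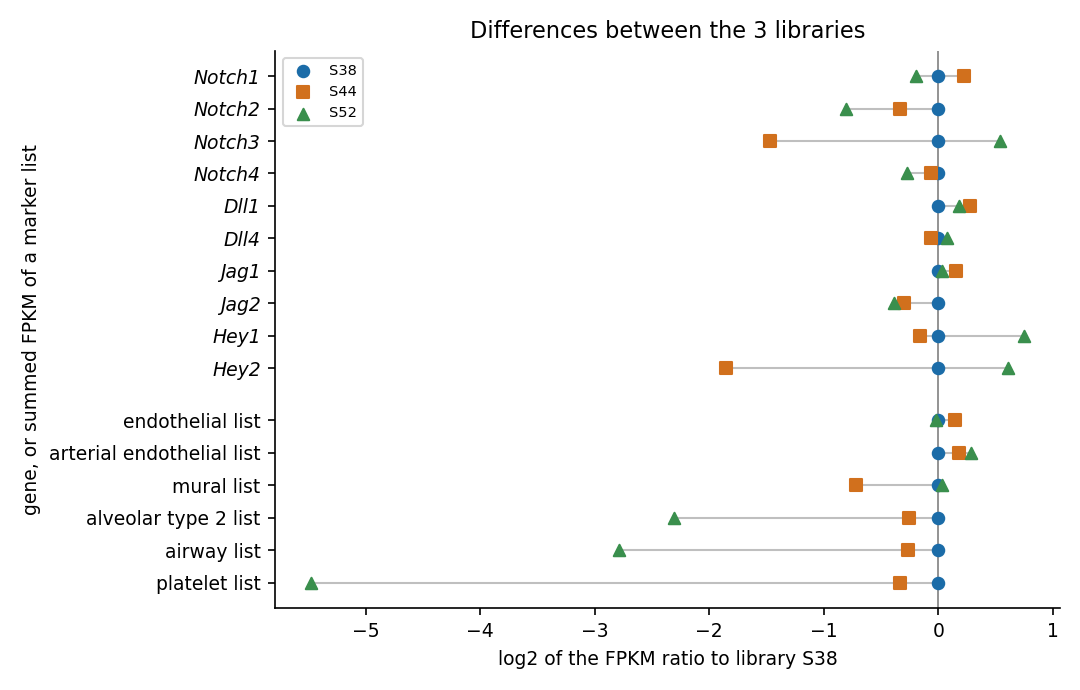
Log2 of the FPKM ratio to library S38 for each gene and for the summed FPKM of 6 marker lists, with 1 symbol per library. *Notch3* and *Hey2* lie at -1.47 and -1.85 in S44, where the mural list is lowest too, while *Dll4*, *Dll1* and *Jag1* stay close to 0.

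To show the sequence before the most abundant gene and before the pair that varied most, the promoter windows of *Dll4*, *Notch3* and *Hey2* were read from RefSeq (GRCm38.p6), 5′ to 3′ on the strand of the gene and ending before its annotated transcript. Capitals mark the core of the RBPJ binding motif, TGGGAA or its reverse complement TTCCCA. The *Dll4* window is chr2:119325534-119325783 on the plus strand, the *Notch3* window chr17:32166891-32167140 on the minus strand and the *Hey2* window chr10:30842802-30843033 on the minus strand.
Dll4: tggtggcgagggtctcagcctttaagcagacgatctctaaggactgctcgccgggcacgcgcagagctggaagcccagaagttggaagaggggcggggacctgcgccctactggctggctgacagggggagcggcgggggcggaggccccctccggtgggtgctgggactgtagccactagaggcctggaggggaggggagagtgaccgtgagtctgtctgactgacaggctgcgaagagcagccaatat
Notch3: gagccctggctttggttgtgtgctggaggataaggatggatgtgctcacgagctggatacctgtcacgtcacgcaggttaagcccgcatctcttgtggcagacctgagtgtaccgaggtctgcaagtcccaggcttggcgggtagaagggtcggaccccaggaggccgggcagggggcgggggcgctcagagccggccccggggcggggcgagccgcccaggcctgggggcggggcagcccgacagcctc
Hey2: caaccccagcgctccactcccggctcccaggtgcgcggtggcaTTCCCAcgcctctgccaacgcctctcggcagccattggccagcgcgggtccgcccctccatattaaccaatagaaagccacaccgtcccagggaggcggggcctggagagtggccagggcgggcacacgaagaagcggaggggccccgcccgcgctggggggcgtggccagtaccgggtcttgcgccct
In the 250 bases before the RefSeq start, searched on both strands, the letters were found in *Hey2* alone of the 9 genes with a window. The match in *Hey2* begins 207 bases before the start. *Hey1* had no window and was not searched. The 9 genes had 10 windows, since *Dll1* had a further one at chr17:15375824-15376073. All 250 bases of that window and of the *Notch1* and *Jag2* windows lay inside the gene as annotated in GENCODE M21. The same held for 124 bases of the *Jag1* window, 27 of *Notch4*, 18 of *Hey2* and 11 of *Notch2*. Of 32544 windows of the same length, 21.6% hold the letters. The letters CACGTG, an E-box bound by many helix-loop-helix proteins, were found in 0 of the 9 genes and in 6.03% of all windows. A match is a description of the letters and not a site of binding.

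In GENCODE M21 (GRCm38), *Dll4* lies on chromosome 2 from 119325784 to 119335962, plus strand, with 11 exons. *Notch4* lies on chromosome 17 from 34564268 to 34588503, plus strand, with 30 exons, and *Notch3* on the same chromosome from 32120820 to 32166852, minus strand, with 33 exons. *Hey1* lies on chromosome 3 from 8663359 to 8667256 and *Hey2* on chromosome 10 from 30832359 to 30842801, both on the minus strand with 5 exons. Exons of other annotated transcripts overlap those of *Dll1*, *Dll4*, *Notch1*, *Notch2* and *Notch3*, and without strand information reads in the shared bases cannot be told apart. For *Dll4* the overlap is 214 bases with *Gm14207*, a transcript of the opposite strand with 7.32, 11.1 and 4.80 FPKM of its own. The overlaps of the others are larger, with 867 bases for *Dll1*, 1068 and 414 for *Notch1*, 541 for *Notch2* and 488 for *Notch3*. The levels of these other transcripts are not given. The transcript that overlaps *Notch2* lies on the same strand, so strand information would not separate them.

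The rest of the pathway was described by 58 other genes in 8 roles. Of these, 47 were detected, or 81.0%, against 48.3% of all genes, and the median of the 58 means was 10.2 FPKM. Of the 47 detected genes, 1 differed over 2-fold between libraries, compared with 20.1% of all detected genes. It was *Neurl1a*, a ubiquitin ligase that acts on ligands, with 1.67, 1.249 and 0.759 FPKM.

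The genes that modify and cut the receptors were detected nearly in full. All 6 glycosylation genes were detected. *Mfng*, a Fringe enzyme that adds a sugar to the receptor and alters its response to Delta-like and Jagged ligands, was at 75.0 ± 10.3 FPKM, well above the glycosylation gene *Eogt* at 26.4 ± 2.31 FPKM and its own relatives *Lfng* at 17.6 ± 2.90 FPKM and *Rfng* at 10.3 ± 0.791 FPKM (SD, n = 3 for each). Of 10 cleavage genes, 9 were detected. The highest were the gamma-secretase subunits *Psenen* at 94.3 ± 2.04 FPKM and *Aph1a* at 83.9 ± 7.51 FPKM (SD, n = 3 for each), and the exception was *Aph1c*, with 0.283, 0.437 and 0.0935 FPKM. All 4 ubiquitin ligases of the ligands were detected, with *Mib2* at 13.5 ± 3.40 FPKM and *Mib1* at 7.04 ± 0.343 FPKM (SD, n = 3 for each). Of the 4 other ligands 0 were detected, since *Dll3* was at most 0.179 FPKM and *Dner* at most 0.174 FPKM in any library, and *Dlk1* and *Dlk2* were listed at 0 in all 3 libraries.

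In the nucleus, all 7 genes of the activating complex were detected. *Snw1*, a co-activator also found in the spliceosome, was at 36.2 ± 1.502 FPKM and *Rbpj* at 11.7 ± 2.84 FPKM (SD, n = 3 for each). All 9 co-repressor genes were detected, led by *Ctbp1* at 68.9 ± 4.63 FPKM and *Ctbp2* at 28.5 ± 5.80 FPKM (SD, n = 3 for each). Of 10 genes of receptor turnover and inhibition, 8 were detected, led by the ubiquitin ligase gene *Nedd4* at 148 ± 22.5 FPKM and *Numb*, an inhibitor of Notch, at 110 ± 11.6 FPKM (SD, n = 3 for each).

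Among the other targets, 4 of 8 were detected. *Hes1*, the Hairy and enhancer of split repressor used by many cell types, had 93.2, 96.5 and 109 FPKM, above *Hey1* in every library. *Nrarp*, a feedback inhibitor induced by Notch, had 19.99, 17.3 and 25.7 FPKM. *Heyl*, the third Hey gene, was at 2.62, 1.79 and 2.69 FPKM, near the level of *Hey2*. Both *Nrarp* and *Heyl* were highest in S52 and lowest in S44. In all, 12 of the 47 detected pathway genes followed that order, beside 17.8% of all detected genes. *Hes3* and *Hes7* were listed at 0 in all 3 libraries.

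**Figure D4:**
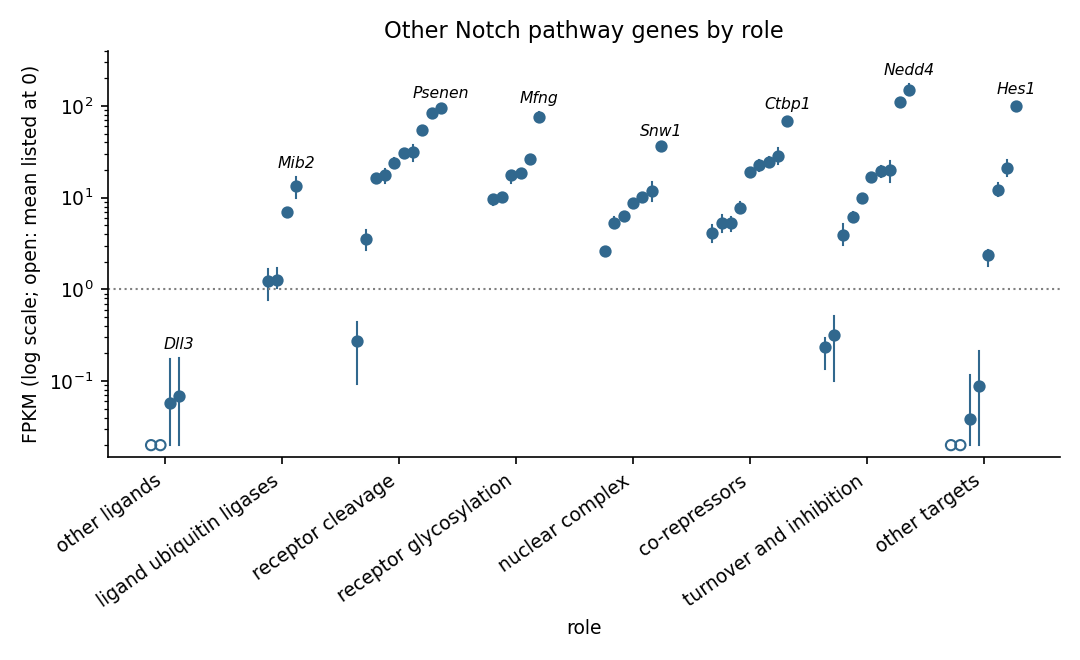
Mean FPKM (log axis) of 58 other Notch pathway genes, 1 point per gene, grouped by role, with lines from the lowest to the highest library and the highest gene of each role named. Open points are genes listed at 0 in all 3 libraries and lines that reach 0 are cut at the bottom, and the dotted line is 1 FPKM, which no gene of the other ligands reaches.

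Levels were also set beside those of 137 fixed pathway and marker genes, and likeness was measured as the largest difference of log2(FPKM + 1) over the 3 libraries. The closest to *Jag1* was *Gja5*, a connexin gene of arterial endothelium, with a difference of at most 0.087. *Gja5* had 8.03, 8.81 and 8.42 FPKM. The closest to *Dll4* were *Aph1a*, *Psenen* and *Hes1*, with differences of at most 0.19, 0.22 and 0.26. *Jag2* was closest to *Psen2* (0.11), *Dll1* to *Ncstn* (0.22), *Notch1* to the capillary gene *Aplnr* (0.32) and *Notch4* to the venous gene *Ephb4* (0.35). *Hey1* was closest to *Ager* (0.20), *Notch2* to *Neurl1a* (0.39) and *Notch3* to *Numbl* (0.53), followed by the pericyte gene *Rgs5* (0.62). *Hey2* had no close neighbour, with *Lum*, a fibroblast gene, nearest at 0.60. The others among the 3 closest, at 0.12 to 0.93, were *Snw1* and *Adam10* for *Notch1*, *Lum* and *Neurl1b* for *Notch2*, *Spen* for *Notch3*, *Ncstn* and *Snw1* for *Notch4*, *Ephb4* and *Aplnr* for *Dll1*, *Maml1* and *Pofut1* for *Jag1*, *Dtx3* and *Adam17* for *Jag2*, *Aplnr* and *Erg* for *Hey1*, and *Heyl* and *Pdpn* for *Hey2*. With 3 libraries of 1 condition, such likeness describes levels only.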

How the data were processed

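The table as deposited by the authors holds FPKM, named by gene symbol, for the mm10 genome, with 1 column per library and no pooling stated. The submitters' processing notes name TopHat2 2.1.0 and Cufflinks 2.2.1 among other tools, with no role given, whereas the study's methods describe STAR and HTSeq counts. The gene annotation is not given in the sources used here. Values were used as deposited. FPKM is not a count, so no count model was fitted, and no test between conditions was possible. Means ± SD are over 3 libraries, and detected means a mean of at least 1 FPKM. Sample columns left unused numbered 0.

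Depth was estimated from genes with 1 basic transcript of 800 to 4000 bp by a search for the size of step on which low values fell at whole multiples. Within 0.15 of a whole number lay 78.2% of 261 low values in S38, 76.7% of 305 in S44 and 77.4% of 164 in S52. The step was fitted to these values. On simulated counts for 6063 genes the error was at most 0.0226%. These counts were drawn with the transcript lengths used in the search and a correction of 150 bp. The error of the depths of the real libraries is therefore not known from it. Fragments per gene use the GENCODE M21 transcript length minus 160 bp in S38 and S44 and 150 bp in S52.

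The genes and lists were chosen with earlier results of these data known. Named genes were the 10 genes, the 2 highest of each pathway role, those listed at 0 in all libraries and the 3 closest in level of each. *Lfng*, *Rfng*, *Aph1c*, *Gm14207* and the marker genes given beside the libraries' differences were named after their values were seen. Alternatives were 2 rescalings, leaving out each library, other thresholds and pseudocounts. Scripts used Python 3.11.15.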

Additional observations from a re-analysis of the deposited data

How the results depend on the processing

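No count changed on scaling by median ratios. Rescaling each library to a sum of 1000000 shifted the median log2 ratio of S44 to S38 to -0.50, from -0.03 as deposited. It also put 4 of the 10 genes over 2-fold between libraries, *Hey1* and *Notch2* added to *Notch3* and *Hey2* (25.8% of all detected genes). The sums as deposited were 1153890 (S38), 1603600 (S44) and 1419350 (S52). Rescaling to 1000000 therefore had to lower every mean, and for 6 of the 10 the fall was more than 1 SD. Leaving out each library in turn gave 0 to 2 genes over 2-fold, with 0 without S44. It reversed 1 to 3 of the 9 neighbouring pairs in the order of means, and the rescaled sum reversed 1, in each case pairs whose ranges overlapped. At 1 FPKM in every library, 9 of the 10 genes passed, all but *Hey2*. A threshold of 10 FPKM left 6 of the 10 genes and 31 of the 58 pathway genes detected. For *Hey2*, which had the lowest value in any library (0.679 FPKM), 3 fragments correspond to at most 0.0369 FPKM.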
